A study of Mus musculus with 8 samples.

Results

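The genes described here are 44 mouse receptor tyrosine kinase genes that lie outside the FGF, ErbB, VEGF and Tie receptor families. They were taken from a list of gene names and found on the array through the RefSeq accession of each probe, and the rule used no measured value, although earlier results of these data were known when the list was drawn up. All 44 had at least 1 probe among the 21368 genes named on the array, with 62 receptor probes in all, and 38 of them could be tested, out of 16781 genes tested. The samples were total RNA from mouse breast tumours hybridised to 2-colour Agilent arrays, 4 labelled FGFR1 KO (K19-tva mice carrying homozygous loxP-flanked Fgfr1 alleles) and 4 labelled WT (control K19-tva mice). All mice were on the FVB strain, and the floxed allele came from ICR mice and was backcrossed. K19-tva mice are named for the keratin 19 promoter and the avian retrovirus receptor tva, so both groups carry that transgene. The sources used here do not give the agent that started the tumours, the source of Cre, the cells in which Fgfr1 was deleted or the age of the mice. Each value below is the log2 ratio of tumour RNA (red) to a common human reference RNA (green) on 1 array, and each difference is FGFR1 KO minus WT.

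Receptor tyrosine kinases are membrane proteins that bind a ligand outside the cell, pair up and phosphorylate each other's tails, which then recruit adaptors of the Ras, PI3-kinase and phospholipase C pathways. In mammary tumours different classes mark different cells: PDGF receptors are known from fibroblasts and pericytes, the CSF1 receptor from macrophages, EPH receptors and DDR1 from epithelium, and KIT from mast cells and luminal progenitors. Several members, such as AXL, MET and the IGF1 receptor, are known as alternative growth receptors in cells whose FGF receptors are inhibited.

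The arrays differed in signal between the groups, which touches every count below. The share of spots well above background in red was 68.9% to 83.9% on FGFR1 KO arrays, against 43.9% to 69.2% on WT arrays. Of the 62 receptor probes, 49 to 59 were well above background on an FGFR1 KO array, against 34 to 47 on WT 1 to 3 and 49 on WT 4. The green reference showed the same order, with 89.4% to 91.4% on FGFR1 KO arrays, against 69.5% to 82.0% on WT arrays. All arrays were on 1 slide, where FGFR1 KO filled row 1 and WT filled row 2, so row and genotype cannot be told apart. On each WT array a larger share of negative controls was bright inside 1 rectangle of spots, called the bright part of the array below, than outside it. Inside, their median signal above local background was 35.5 and 41 on WT 1 and 3, against 2.25 and 3.5 outside. On WT 2 and 4 it was 6.25 and 6, against 6.75 and 3 outside. The receptors whose representing probe has a spot in the bright part are listed below. Some other receptor probes and some ligands, adaptors and markers also lie there without being named as such. WT 2 was unlike the rest: its correlation with them across probes averaged 0.379, against 0.598 to 0.713 for each of the others. The probe that represented Fgfr1, with a mean log2 red signal of 16.3, differed by -0.00 ± 0.12 (SE). The gene's other probes differed by -0.10 ± 0.41 and -0.49 ± 0.66, the last in the bright part of the array. Where these probes lie relative to the floxed part is unknown here, so they do not check the genotype. Whether each tumour had its own mouse is not in the labels, so the p-values speak only for the spread among these samples, which may be technical, and their number limits the precision. Exact permutation tests below were two-sided over 4 FGFR1 KO and 4 WT arrays and cannot give a p below 0.0286, the value of every gene whose groups do not overlap.

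The comparison asked whether receptor kinases other than FGFR1 differed between FGFR1 KO and WT tumours. No receptor gene passed limma's test after Benjamini-Hochberg adjustment over all probes: 0 of 38 were called, with adjusted p from 0.484 to 0.999, beside 0% of all genes tested and 0.01% of all probes (8.48% of all probes had an unadjusted p under 0.05). The differences ran from -0.92 to 0.84, with a median of 0.05 against -0.00 over all genes. Of the 38, 17 were below 0 (44.7%, against 50.4% of all genes). Without adjustment, limma gave p under 0.05 for 6 receptors, or 15.8% against a background of 7.88%. In 5 of them the representing probe was lower in FGFR1 KO tumours (Pdgfrb, Pdgfra, Axl, Igf1r and Epha7, background in that direction 4.78%), and the other probes of Epha7 were higher. The 1 higher receptor was Alk (background 3.1%), whose probe entered the test only through the FGFR1 KO arrays. Nothing is read from its p, or from the 15.8% that counts it. Among 37 receptors with a value on every array, 3 read lower on each FGFR1 KO array than on any WT array: Pdgfra, Pdgfrb and Igf1r (8.11%, against 2.49% of all genes). In the other direction there were 0, against 1.82% of all genes. None differed by more than 1 in size, while 5 were below -0.5 (background 11.6%) and 4 above 0.5 (5.63%).

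**Figure D1:**
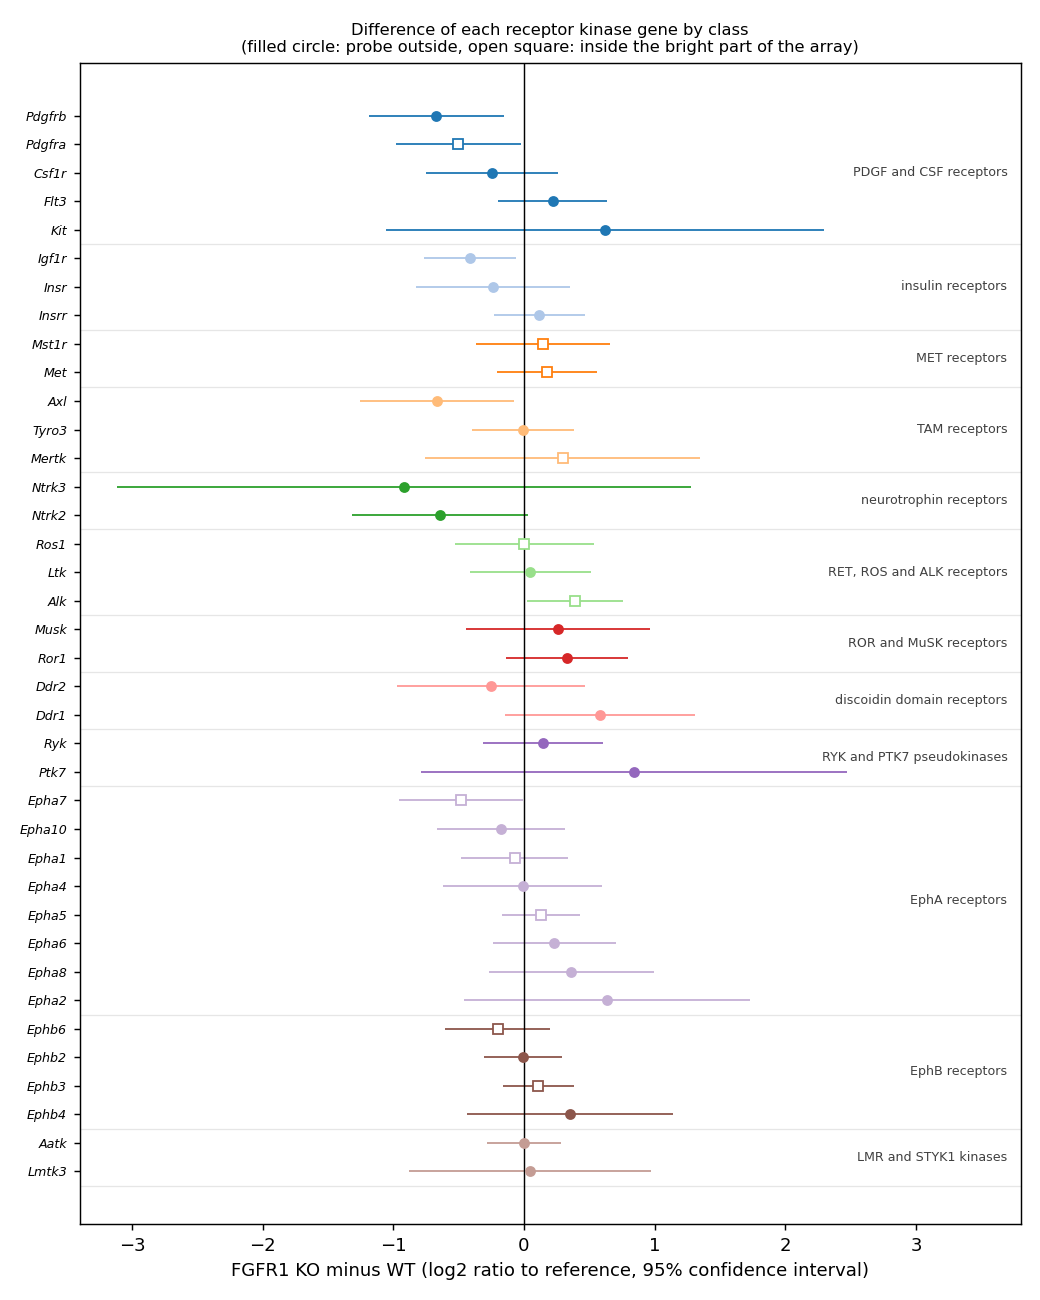
Difference of each of the 38 tested receptor genes (x axis, FGFR1 KO minus WT on the log2 ratio scale, bars are 95% confidence intervals from limma), grouped by class; open squares mark genes whose probe has a spot in the bright part of the array. The differences lie on both sides of 0, from -0.92 for Ntrk3 to 0.84 for Ptk7. The intervals of Pdgfrb, Pdgfra, Igf1r, Axl and Epha7 leave out 0 before adjustment. The interval of Alk is drawn but not read, as its probe was not well above background on any WT array.

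In the PDGF and CSF receptor class, the PDGF receptors were the members that separated the groups. Pdgfrb encodes the receptor for PDGF-BB that marks pericytes and fibroblasts. It read -0.28, -1.03, -0.51 and -1.32 on FGFR1 KO 1 to 4, against -0.06, -0.02, -0.19 and -0.20 on WT 1 to 4. All FGFR1 KO arrays lay below all WT arrays, and the spread was wide in FGFR1 KO (SD 0.47) and narrow in WT (SD 0.09). The difference was -0.67 ± 0.23 (SE), 0.629 times the WT ratio with a 95% confidence interval from 0.439 to 0.901, and limma's adjusted p was 0.484.

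Pdgfra encodes the receptor for PDGF-AA, a marker of fibroblasts. Its values were -1.64, -1.34, -1.28 and -2.10 on FGFR1 KO 1 to 4, against -0.79, -1.07, -1.27 and -1.24 on WT 1 to 4. FGFR1 KO 4 was the lowest array, and FGFR1 KO 3 lay only just below WT 3, so the groups touch without overlapping. The difference was -0.50 ± 0.21 (SE), 0.706 times the WT ratio (95% confidence interval 0.506 to 0.985), with limma's adjusted p at 0.577. Its probe has 10 spots, 2 of them in the bright part of the array, and without these the difference was -0.46 and the groups overlapped. Pdgfra and Igf1r, which also separated the groups, are shown with their promoters (RefSeq, build GRCm38.p6), from 250 bases before to 50 after the gene's start. Capitals mark GC boxes (GGGCGG on either strand). Of the 38 tested receptor genes, 33 were found in the promoter table. The promoter of Pdgfrb, which also separated the groups, is not reported here.
Pdgfra, chr5:75152001-75152300, plus strand: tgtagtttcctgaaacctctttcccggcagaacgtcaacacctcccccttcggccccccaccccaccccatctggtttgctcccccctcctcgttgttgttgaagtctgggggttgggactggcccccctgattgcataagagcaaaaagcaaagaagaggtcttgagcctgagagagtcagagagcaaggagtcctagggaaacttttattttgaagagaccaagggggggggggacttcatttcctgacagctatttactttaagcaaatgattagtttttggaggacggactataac
Igf1r, chr7:67952007-67952306, plus strand: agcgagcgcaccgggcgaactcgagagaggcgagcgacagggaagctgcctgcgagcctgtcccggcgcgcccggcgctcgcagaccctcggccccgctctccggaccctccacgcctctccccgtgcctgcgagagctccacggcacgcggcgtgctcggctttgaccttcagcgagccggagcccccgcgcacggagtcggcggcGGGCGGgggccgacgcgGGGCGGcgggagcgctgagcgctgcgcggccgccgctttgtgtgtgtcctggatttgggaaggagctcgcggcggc
The Pdgfra window held 0 GC boxes at a GC content of 51.0%, and the Igf1r window held 2, starting 43 and 26 bases before the gene's start, at a GC content of 76.0%. A GC box was found in 35.7% of the 32851 promoters of that length in the table, whose median GC content was 52.7%. Neither window held a TATA box (TATAAA on either strand), which 13.6% of all promoters held.

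The fibroblast markers lay on the same side as these receptors. All 7 (Col1a1, Col1a2, Col3a1, Dcn, Lum, Fap and Thy1) were below 0, against 50.4% of all genes, and 3 of them were lower without overlap, against 2.49%. Their median ranged from -2.78 to -0.72 on the FGFR1 KO arrays and from -1.12 to 0.44 on the WT arrays. Each of the 7 was well above background on all 8 arrays. Of the 6 measured pericyte markers 4 were below 0 (50.4% of all genes). Without overlap, 0 were lower (2.49% of all genes) and 1, Mcam, was higher (1.82%). Mcam differed by 0.12 ± 0.12 (SE), from a spot in the bright part of the array with a mean log2 red signal of 16.3. The median of the pericyte markers was 0.47 to 1.03 on FGFR1 KO arrays, against 0.35 to 0.69 on WT 1, 3 and 4 and 2.56 on WT 2. Their part in the result was not tested. In bulk tumour RNA, fewer cells of a type and less RNA per cell cannot be told apart.

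The other class members did not separate the groups. Csf1r, the macrophage growth factor receptor, differed by -0.25 ± 0.22 (SE), with FGFR1 KO arrays between -0.09 and 0.24 and WT arrays between -0.11 and 0.86. Its 3 probes agreed, at -0.25, -0.25 and -0.23. Of the macrophage markers 6 of 7 were below 0 (50.4% of all genes), and Cd163 and Mrc1 were lower without overlap (2.49% of all genes; list medians 0.44 to 0.65 on FGFR1 KO arrays and 0.72 to 1.56 on WT arrays), and their part was not tested. Flt3, the receptor of dendritic cell and lymphoid precursors, differed by 0.22 ± 0.18, while dendritic cell list medians were -0.02 to 0.44 on FGFR1 KO arrays and -0.31 to 1.41 on WT arrays.

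Kit encodes the stem cell factor receptor, which mast cells and luminal progenitors express. It was chosen after its values were seen: 3.20, 3.32, 4.37 and 2.60 on FGFR1 KO 1 to 4, against 2.76, 0.47, 3.75 and 4.03 on WT 1 to 4. WT 2 was far below the other 7 arrays, and the groups overlapped. The difference of 0.62 ± 0.74 (SE) became -0.14 without WT 2. The 4 measured mast cell markers were all below 0 (50.4% of all genes), and 3 of them (Mcpt4, Cma1 and Hdc) were lower without overlap (2.49% of all genes), with list medians of -0.23 to 0.13 on FGFR1 KO arrays and 0.96 to 1.65 on WT arrays. The probes of Mcpt4, Hdc and Tpsb2 lay in the bright part of the array, and that of Cma1 lay outside it. The part of these markers in the Kit values was not tested.

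The ligands of this class gave 0 calls. Pdgfa differed by -0.35 ± 0.41, Pdgfb by 0.08 ± 0.13 and Pdgfc by 0.93 ± 0.50 (SE), the last with no value on FGFR1 KO 1. Kitl, which encodes stem cell factor, differed by 0.51 ± 0.38, and the CSF1 receptor ligands Csf1 and Il34 by 0.33 ± 0.29 and -0.02 ± 0.16. Flt3l, the FLT3 ligand, read 0.21, -0.33, 0.31 and -0.40 on FGFR1 KO 1 to 4, against 1.46, 0.58, -0.04 and 0.82 on WT 1 to 4. The groups overlapped through WT 3, and the difference was -0.76 ± 0.32 (SE), with limma's adjusted p at 0.572, from a spot in the bright part of the array.

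**Figure D2:**
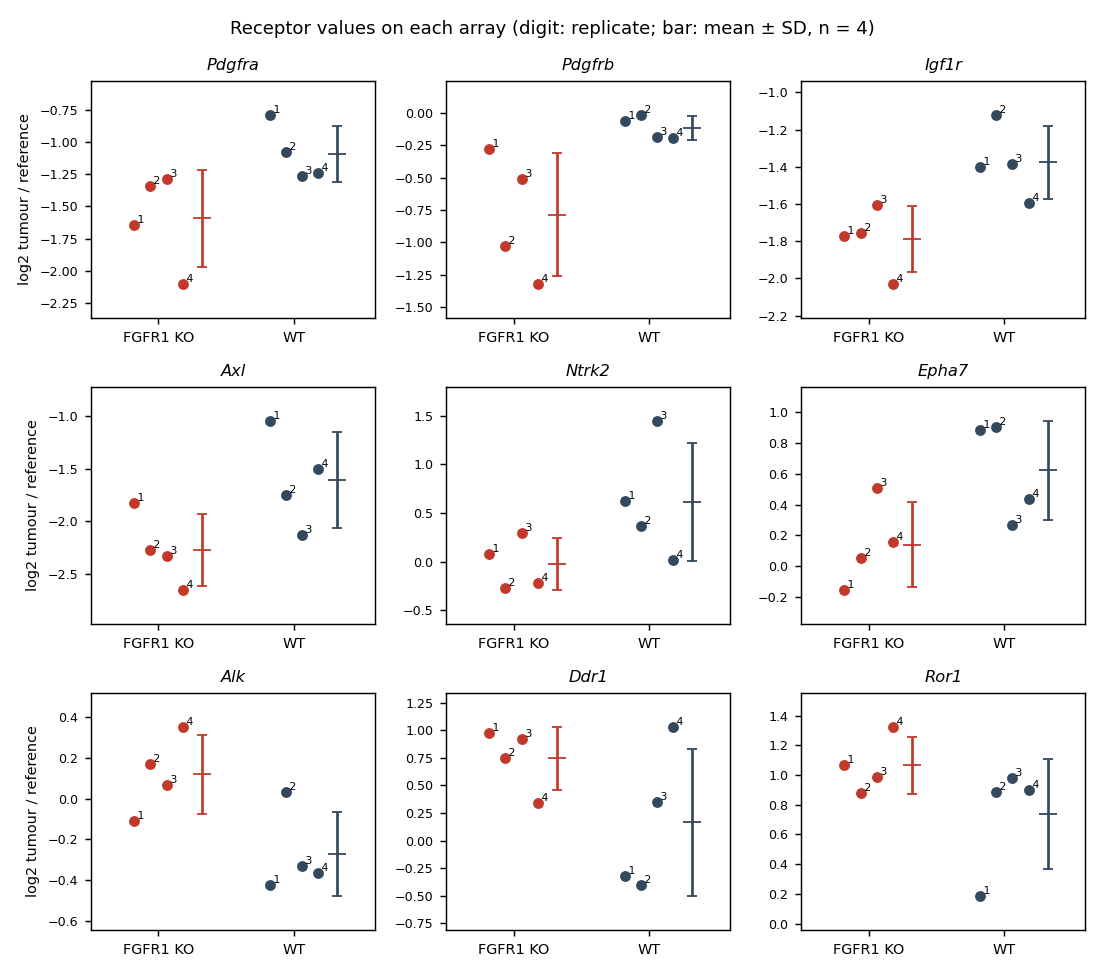
Log2 ratio of tumour to reference (y axis, its range set per gene) on each FGFR1 KO array (left, red) and each WT array (right, grey) for 9 receptors, with digits giving the replicate and bars the mean ± SD (n = 4 per group). Pdgfra, Pdgfrb and Igf1r do not overlap between the groups, Axl, Ntrk2 and Epha7 are mostly lower in FGFR1 KO, and Alk, Ddr1 and Ror1 mostly higher, each with overlap.

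In the insulin receptor class, Igf1r stood below WT on every FGFR1 KO array. It encodes the IGF1 receptor, which drives growth and survival of mammary epithelium. Its values were -1.77, -1.75, -1.60 and -2.03 on FGFR1 KO 1 to 4, against -1.40, -1.12, -1.39 and -1.60 on WT 1 to 4. FGFR1 KO 3 and WT 4 were equal to 2 decimals, so the groups only just missed each other. The difference was -0.41 ± 0.16 (SE), with limma's adjusted p at 0.539. Its size depended on the processing, at -0.24 with the A-quantile red signal alone and -0.95 with Agilent's log ratio, and both of these let the groups overlap. The probe was dim: it was well above background on 3 FGFR1 KO arrays and 1 WT array.

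Insr, the insulin receptor, differed by -0.24 ± 0.26 by the probe that represented it and by 0.05 and 0.33 by its other probes. Insrr, an insulin receptor relative known as an alkali sensor in kidney, differed by 0.12 ± 0.15 (SE). Igf1, the main local ligand of the class, read -1.07, -0.22, -0.88 and -0.63 on FGFR1 KO 1 to 4, against -0.73, -1.30, -0.92 and -0.86 on WT 1 to 4. The groups overlapped, and the difference was 0.25 ± 0.21 (SE). Igf2 was not tested.

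The MET receptors differed little. Met, the hepatocyte growth factor receptor, read 0.12, 0.08, -0.16 and -0.16 on FGFR1 KO 1 to 4, against -0.06, -0.54, 0.06 and -0.29 on WT 1 to 4. FGFR1 KO 1 and 2 lay above all WT arrays and WT 2 and 4 below all FGFR1 KO arrays, while the remaining arrays overlapped. The difference was 0.18 ± 0.17 (SE; 95% confidence interval -0.21 to 0.56), and 0.07 without WT 2. Mst1r, the macrophage-stimulating protein receptor RON, differed by 0.15 ± 0.23, and by -0.05 without WT 2. Their ligands Hgf and Mst1 were not tested.

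Among the TAM receptors, which bind GAS6 and protein S, Axl showed the largest difference. It read -1.82, -2.27, -2.33 and -2.65 on FGFR1 KO 1 to 4, against -1.04, -1.75, -2.13 and -1.50 on WT 1 to 4. FGFR1 KO 1 lay above WT 3, and the other FGFR1 KO arrays lay below all WT arrays. The difference was -0.67 ± 0.26 (SE), 0.630 times the WT ratio (95% confidence interval 0.418 to 0.948), with limma's adjusted p at 0.547 and the exact permutation p at 0.0571. Tyro3 differed by -0.01 ± 0.17 and, by its other probe, by 0.56 ± 0.32. Mertk, the receptor by which macrophages clear dying cells, differed by 0.30 ± 0.46, with FGFR1 KO 4 at 2.42 and the other 7 arrays between 0.12 and 1.08. Without FGFR1 KO 4 its difference was -0.20.

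Gas6, the shared TAM ligand, read 1.55, 1.17, 1.58 and 0.40 on FGFR1 KO 1 to 4, against 1.75, 2.14, 1.71 and 1.47 on WT 1 to 4. Only WT 4 lay among the FGFR1 KO arrays, and the difference was -0.59 ± 0.28 (SE), with limma's adjusted p at 0.609. Its probe was in the bright part of the array. Pros1, which encodes protein S, ran the other way, at 0.72 ± 0.49, so the ligands of this class did not share a direction.

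The neurotrophin receptors varied widely. Ntrk2, the receptor for brain-derived neurotrophic factor, read 0.08, -0.27, 0.30 and -0.21 on FGFR1 KO 1 to 4, against 0.62, 0.37, 1.45 and 0.01 on WT 1 to 4. WT 4 lay among the FGFR1 KO arrays while the other WT arrays lay above them. The difference was -0.64 ± 0.30 (SE; 95% confidence interval -1.31 to 0.03), and its second tested probe gave -0.07 ± 0.16, so the size rests on 1 probe. Without WT 3 the difference was -0.36. Ntrk3, the receptor for neurotrophin 3, differed by -0.92 ± 0.97, with arrays from 0.17 (FGFR1 KO 4) to 4.48 (WT 2) and FGFR1 KO 1 at 4.05. Leaving out 1 array gave differences from -1.67 (without FGFR1 KO 1) to -0.33 (without WT 2), and without WT 1 and WT 2 it was 0.12. Its other probes gave -0.87 ± 0.40 and -0.17 ± 0.34. The ligand genes Bdnf and Ntf5 differed by 0.14 ± 0.21 and 0.30 ± 0.21, and Ntf3 was not tested. Schwann cell and nerve marker medians were 0.07 to 0.36 on FGFR1 KO arrays and -0.21 to 0.25 on WT arrays.

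Of the RET, ROS and ALK receptors, Alk had the probe that read highest in FGFR1 KO relative to WT. Alk encodes a receptor of the nervous system that is activated in some lymphomas and lung tumours. It read -0.11, 0.17, 0.07 and 0.35 on FGFR1 KO 1 to 4, against -0.43, 0.03, -0.33 and -0.37 on WT 1 to 4. WT 2 lay above FGFR1 KO 1, and the other WT arrays lay below all FGFR1 KO arrays. The probe was not well above background on any WT array and lay in the bright part of the array. It passed the filter only through the FGFR1 KO arrays, so its WT level has only an upper bound, and the ratio difference of 0.39 on these values is given with no test or fold. Ros1 was also not well above background on any WT array, which allows no fold, and Ltk, a relative of ALK, differed by 0.05 ± 0.20. Ret, the receptor for the GDNF family, was well above background on 2 FGFR1 KO arrays and 0 WT arrays and was not tested. The ALK and LTK ligands Alkal1 and Alkal2 and the RET ligand Gdnf were not tested, and Mdk and Ptn, heparin-binding factors proposed as ALK ligands, differed by 0.07 ± 0.27 and 0.72 ± 1.62.

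In the ROR and MuSK class, Ror1, a receptor for WNT5A, read 1.07, 0.88, 0.99 and 1.33 on FGFR1 KO 1 to 4, against 0.19, 0.89, 0.98 and 0.90 on WT 1 to 4. WT 1 was far below the other arrays, which overlapped. The difference was 0.33 ± 0.21 (SE), and 0.14 without WT 1, and Wnt5a differed by 0.05 ± 0.15. Musk, the receptor that organises the nerve-muscle synapse, differed by 0.26 ± 0.31, and by 0.02 without WT 2. Its lowest value, -0.38, was on WT 2, the array on which the median of the skeletal muscle markers was 8.30 against -0.16 to 1.76 on the others. The MuSK partners Agrn and Lrp4 differed by -0.02 ± 0.22 and -0.23 ± 0.25. Ror2 was well above background on 1 FGFR1 KO array and 0 WT arrays and was not tested.

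The discoidin domain receptors bind collagen, DDR1 mainly in epithelium and DDR2 in fibroblasts. Ddr1 read 0.98, 0.75, 0.92 and 0.34 on FGFR1 KO 1 to 4, against -0.32, -0.40, 0.35 and 1.03 on WT 1 to 4. WT 1 and WT 2 lay below all FGFR1 KO arrays, while WT 4 was the highest array. The difference was 0.58 ± 0.32 (SE; 95% confidence interval -0.14 to 1.31) and was 0.06 without WT 1 and WT 2. Ddr2 differed by -0.25 ± 0.32, and by -0.63 ± 0.43 with its other probe, with FGFR1 KO 4 at -2.87, below the other 7 arrays. Without FGFR1 KO 4 the difference was 0.02.

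Ptk7 and Ryk encode kinase-dead receptors of WNT signalling. Ptk7 read 0.55, 0.82, 1.00 and 0.27 on FGFR1 KO 1 to 4, against 0.26, -2.68, 0.99 and 0.71 on WT 1 to 4. The other arrays overlapped, and WT 2 alone lay far below. The difference of 0.84 ± 0.72 (SE), the highest of the 38, was 0.01 without WT 2. Ryk differed by 0.15 ± 0.20 (SE).

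Eph receptors bind ephrins on neighbouring cells and guide tissue boundaries. The 8 tested EphA genes had a median difference of 0.06, with 4 below 0, and the 4 tested EphB genes had a median of 0.05, with 2 below 0. Epha7 had the smallest p of the EphA genes by the probes that represent them. The probe that represented it read -0.15, 0.05, 0.51 and 0.16 on FGFR1 KO 1 to 4, against 0.88, 0.90, 0.26 and 0.44 on WT 1 to 4. FGFR1 KO 3 lay above WT 3 and WT 4, and the other FGFR1 KO arrays lay below all WT arrays. That probe gave -0.48 ± 0.21 (SE; limma's adjusted p 0.583, exact permutation p 0.0857) and lay in the bright part of the array. The other probes gave 0.33 ± 0.22 outside that part and 0.26 ± 0.31 inside it, so no direction can be given for the gene.

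Epha2, the ephrin-A1 receptor of mammary epithelium, differed by 0.63 ± 0.48, with WT 2 at -1.59 as the lowest array, and by 0.32 without WT 2 or without FGFR1 KO 3. Epha8 was not well above background on any WT array, and it passed the filter only through the FGFR1 KO arrays, so no test or fold is given. Epha5 differed by 0.13 ± 0.13 by the probe that represented it and by 0.53 ± 0.21 by the other, for which limma gave an unadjusted p of 0.0296 and an adjusted p of 0.542. The mean log2 red signals of these Epha5 probes were 15.9 and 7.75. Epha1, Epha4, Epha6 and Epha10 differed by -0.07 ± 0.18, -0.01 ± 0.27, 0.23 ± 0.21 and -0.18 ± 0.22 (SE). Epha3 was well above background on 0 of 8 arrays and was not tested.

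Ephb6, a kinase-dead receptor, had the smallest p among the EphB genes. It read 0.15, -0.13 and 0.06 on FGFR1 KO 1, 3 and 4, against 0.11, 0.35 and 0.23 on WT 1, 2 and 4, with no value on FGFR1 KO 2 and WT 3, where the spot was an outlier. The groups overlapped, and the difference was -0.20 ± 0.17 (SE). The other tested Ephb6 probe, with a value on every array, gave -0.04 ± 0.18. Ephb4, the ephrin-B2 receptor, differed by 0.35 ± 0.35 and by 0.02 without WT 2, which read -0.39. Ephb2 and Ephb3 differed by -0.01 ± 0.13 and 0.11 ± 0.12. Ephb3 had the brightest representing probe among the tested receptors, with a mean log2 red signal of 16.3 and no spot flagged as saturated. Whether so bright a signal narrows the ratio was not tested. Ephb1 was well above background on 2 FGFR1 KO arrays and 0 WT arrays and was not tested.

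Among the ephrin genes, Efna2 and Efna3 were higher on every FGFR1 KO array than on any WT array, as were 1.82% of all genes. Efna3 read 0.05, -0.21, -0.35 and -0.56 on FGFR1 KO 1 to 4, against -0.76, -0.62, -0.64 and -0.61 on WT 1 to 4. FGFR1 KO 4 lay just above the WT arrays, and the difference was 0.39 ± 0.16 (SE), with limma's adjusted p at 0.558. Efna2 read 0.28, 0.08, 0.25 and 0.08 on FGFR1 KO 1 to 4, against 0.02, -0.15, -0.21 and -0.06 on WT 1 to 4. It differed by 0.27 ± 0.13 (SE), with limma's adjusted p at 0.609. The other ephrins differed by -0.38 (Efnb1) to 0.07 (Efna1).

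The LMR and STYK1 kinases, membrane-anchored kinases with short outer parts, gave 2 tested genes. Lmtk3, reported as a regulator of the oestrogen receptor, read 1.53, -0.43, -0.33 and 0.02 on FGFR1 KO 1 to 4, against 0.16, 0.16, -0.20 and 0.49 on WT 1 to 4. FGFR1 KO 1 was far above the others, and the difference was 0.04 ± 0.41 (SE), and -0.40 without FGFR1 KO 1. Aatk differed by -0.00 ± 0.13. Lmtk2 was well above background on 0 of 8 arrays and Styk1 on 2 FGFR1 KO arrays and 1 WT array, and neither was tested.

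**Figure D3:**
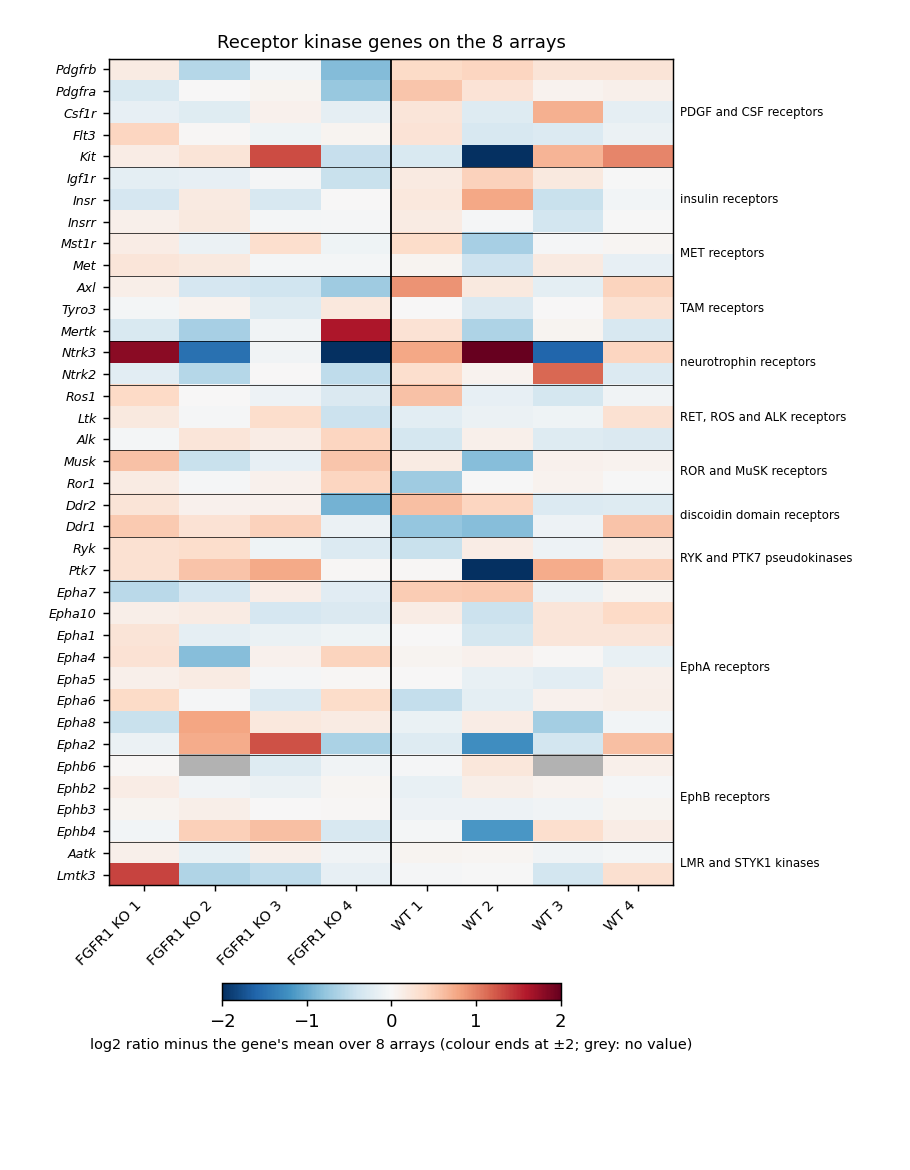
Log2 ratio of each tested receptor gene (rows, grouped by class) on each array (columns, FGFR1 KO 1 to 4 then WT 1 to 4), minus the gene's mean over the 8 arrays, with colour ending at ±2 and grey for no value. Strong colours include WT 2 for Kit and Ptk7, FGFR1 KO 4 for Mertk and arrays of both groups for Ntrk3.

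The range of a receptor over the 8 arrays had a median of 1.04, close to the 1.00 of all genes tested, and it was over 2 for 5 receptors (Ntrk3, Kit, Ptk7, Epha2 and Mertk), or 13.2% against 15.0% of all genes. WT 2 held the lowest value for 14 of 37 receptors (37.8%, against 22.4% of all genes) and the highest for 5 (13.5%, against 25.9%). On WT 2 the median of the 7 luminal epithelium markers was -1.14, against 1.47 to 2.56 on the other arrays, and the adipocyte and skeletal muscle medians were 4.30 and 8.30. The 14 receptors lowest on WT 2 included Kit, Ptk7, Epha2, Ephb4 and Ddr1, whose differences without it were -0.14, 0.01, 0.32, 0.02 and 0.39. The others were Csf1r, Flt3, Musk, Met, Mst1r, Tyro3, Epha1, Epha10 and Ephb3. Ddr1 read nearly as low on WT 1 (-0.32) as on WT 2 (-0.40). The part of these markers in the receptor values was not tested. WT 1 also carried high adipocyte markers (median 3.64, against 0.06 to 0.43 on the arrays other than WT 1 and WT 2).

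**Figure D4:**
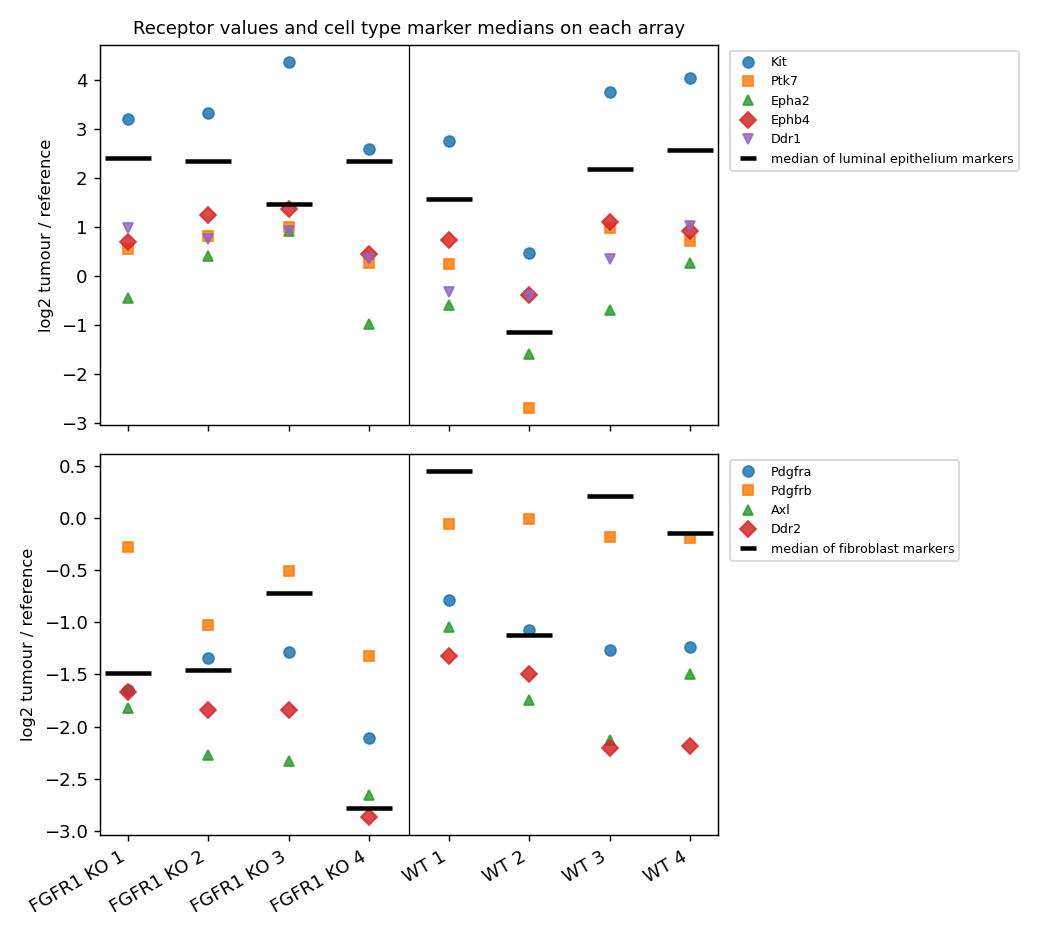
Log2 ratio (y axis) of receptors on each array (x axis, FGFR1 KO 1 to 4 left, WT 1 to 4 right), with black bars for the median of luminal epithelium markers (top) or fibroblast markers (bottom); levels of different genes are not to be compared, only their course over the arrays. In the top panel Kit, Ptk7, Epha2, Ephb4, Ddr1 and the luminal median are all lowest on WT 2. In the bottom panel Pdgfra, Pdgfrb, Axl, Ddr2 and the fibroblast median are all lowest on FGFR1 KO 4. The receptors shown were picked from the 14 lowest on WT 2 and the 7 lowest on FGFR1 KO 4.

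FGFR1 KO 4 was the lowest array for 7 of 37 receptors (18.9%, against 13.5% of all genes). They were Pdgfra, Pdgfrb, Igf1r, Axl, Ddr2, Ntrk3 and Ltk. FGFR1 KO 4 also had the lowest fibroblast median (-2.78). Without FGFR1 KO 4 the difference was -0.33 for Pdgfra and -0.49 for Pdgfrb, and both still separated the groups. Pdgfra, Pdgfrb and Axl were below 0 under all 25 alternatives tried, and Igf1r under the 24 that tested it. Some of these alternatives change only the p-value and cannot change the difference, and others only leave out arrays. The shared sign is therefore not independent support.

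Of the 38 genes, 12 had more than 1 tested probe. The probes of 9 shared a sign, and those of Insr, Tyro3 and Epha7 did not. Epha7 was the only receptor with probes that opposed each other by more than 1 SE each. The PDGF receptors, Igf1r, Axl and Alk had 1 tested probe each, so no second probe bears on them.

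**Figure D5:**
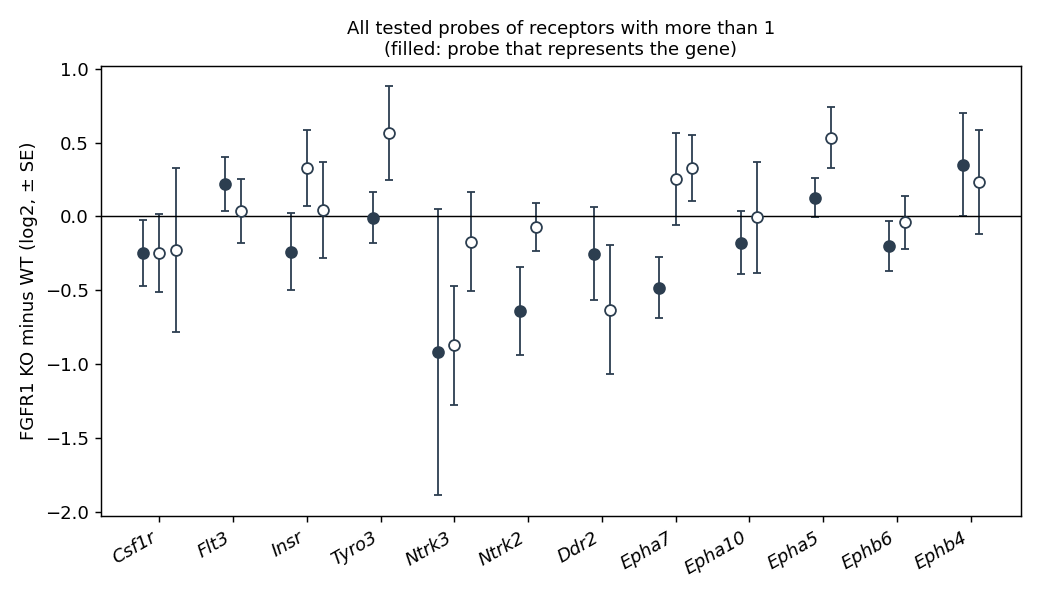
Difference of every tested probe (y axis, FGFR1 KO minus WT, log2 ± SE) for the 12 receptors with more than 1, with filled points for the probe that represents the gene. The probes of Csf1r lie between -0.25 and -0.23, while those of Epha7 lie on both sides of 0, from -0.48 to 0.33.

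The bright part of the array, a rectangle from row 97 to row 336 and from column 83 to column 164, touched 11 of the 38 receptors. Negative control spots there exceeded 50 intensity units above local background in 0% of cases on each FGFR1 KO array, against 43.8%, 17.7%, 46.9% and 22.9% on WT 1 to 4. The receptors with a spot inside (Pdgfra, Met, Mst1r, Mertk, Ros1, Alk, Epha1, Epha5, Epha7, Ephb3 and Ephb6) had a median difference of 0.11, with 4 of 11 below 0. The 27 outside had a median of 0.04, with 13 below 0. With these spots left out, 32 receptors remained tested, 0 were called, and Pdgfrb and Igf1r were those without overlap.

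Of 40 listed ligand and co-receptor genes 30 were tested, and 0 were called. Of these 13 were below 0, with a median of 0.04 and a range from -0.76 (Flt3l) to 0.93 (Pdgfc), and limma gave unadjusted p under 0.05 for 2 of them (Flt3l and Efna3), against 7.88% of all genes. The co-receptors of RET, Gfra2, Gfra3 and Gfra4, differed by -0.32 ± 0.42, 0.03 ± 0.16 and -0.40 ± 0.17 (SE). As with the receptors, the list lay near the -0.00 of all genes.

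Of 35 listed adaptors and restraint genes, which carry or end the signal of many receptors, 30 were tested and 0 were called. Of these 17 were below 0, with a median of -0.03. Sh2b2, an adaptor of the insulin and TRK receptors, was the only gene of the list without overlap (lower, as were 2.49% of all genes). It read -0.19, -0.34, 0.01 and -0.65 on FGFR1 KO 1 to 4, against 1.29, 1.96, 0.54 and 0.15 on WT 1 to 4. WT 1 and WT 2 were far above the rest, and WT 4 lay just above FGFR1 KO 3. The difference was -1.28 ± 0.37 (SE), with limma's adjusted p at 0.434, and the probe lay in the bright part of the array.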

How the data were processed

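RNA of 8 tumours was measured on 2-colour Agilent arrays. Per the file headers, the scanner software was Agilent Feature Extraction 11.0.1.1 and the array design was for build mm9. Per the file headers, the deposited median signals are linear intensities before background correction, the processed signals are intensities after background and dye correction, and the scanner's ratio is log10 of red over green. The deposited series matrix, used only as an alternative, holds log2 values of red over green: across probes its columns had r of 0.892 to 0.947 against the scanner's ratio, and of 0.985 to 0.991 against the ratios computed here. Its normalization and centring are unknown. The median of its columns was 0.0155, -0.0152, -0.000673 and 0.00487 on FGFR1 KO arrays, against -0.00440, -0.00140, -0.00486 and 0.00217 on WT arrays. Per the labelling protocol, tumour RNA carried the red dye and human reference RNA the green one, although the label field has only cy3. The spread within groups over 22367 spots was lower in green (median SD 0.162 in FGFR1 KO and 0.183 in WT) than in red (0.307 and 0.389), so red was taken as the tumour.

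Median signals were background-corrected by normexp with offset 50 (limma 3.58.1, R 4.3.3), and mean signals were not used here. Loess was run within arrays, with control and outlier spots at weight 0 and then left out, and spots of a probe were averaged. A probe was kept if its red signal stood well above background on at least 4 arrays with at least 3 values a group, and the 39818 kept of 55681 were tested by lmFit and eBayes (two-sided, Benjamini-Hochberg over all probes, threshold 0.05). As most WT arrays were dimmer, a probe could pass this filter through FGFR1 KO arrays alone. Probes were named by RefSeq accession through a table of assembly GRCm38.p6, and the probe with the highest mean red signal represented a gene. Only the limma fit was tried on simulated ratios with known changes, and the steps before it were not simulated.

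The receptors, the ligand, adaptor and marker lists and the bright part of the array were chosen with earlier results of these data known. Values on every array are given for receptors whose groups did not overlap, for the smallest p in each of 12 classes, for receptors with probes opposed by more than 1 SE, and for ligands and adaptors without overlap or tied to those receptors. Kit, and the single arrays given for other receptors, were chosen after their values were seen.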

Additional observations from a re-analysis of the deposited data

Results flagged for a closer look

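In 11 of 188 groups of 4 arrays examined over receptors, ligands and adaptors, 1 array lay far from the other 3 by Dixon's test of the gap to its nearest neighbour. Chance alone gives about 1 in 20. Among receptors, FGFR1 KO 4 was low for Ddr2 (-2.87), WT 1 was low for Ror1 (0.19) and WT 2 was low for Musk (-0.38). Among ligands, FGFR1 KO 1 was high for Agrn (0.81), FGFR1 KO 3 was high for Efna4 (0.37) and WT 1 was low for Bdnf (-1.61) and Efna3 (-0.76). Among adaptors and restraint genes, FGFR1 KO 3 was low for Gab2 (-0.25), and WT 2 was high for Ptpn11 (0.56) and low for Plcg2 (-1.62) and Socs3 (-2.72). WT 2 accounted for 4 of the 11.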

How the results depend on the processing

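In 25 alternatives, 0 receptors were called in each. The smallest limma adjusted p of any receptor was 0.299, for Alk with the red processed signal alone, which moved the median of all genes to 0.10. Nothing is read from it, as Alk passed the filter only through FGFR1 KO arrays. Among the other receptors the smallest was 0.319 (Igf1r, with ratios scaled between arrays). Of 38 receptors, 19 kept the sign of their difference in every alternative, and 73 of 933 comparisons of a receptor with an alternative had the other sign. Some alternatives change only the p-value, so these counts overstate how far the signs were tried. The causes of the changes below were not tested unless stated.

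The count of probes called, 4 as reported, was 0 with Agilent's log ratio, median centring, ratios scaled between arrays, the red processed signal alone, a filter for all 8 arrays, the bright area left out, trend and robust eBayes, and without WT 1 and WT 2 together. It was 27 with A-quantile red alone, 11 with array weights and 139 with no detection filter. The replicate block gave 0 probes called and 0 receptors called, with 17 receptors below 0 and 3 lower without overlap as in the report. Same-numbered arrays also lay in the same column of the slide. Their deviations from the group means had correlations of -0.04, 0.01, 0.11 and -0.11, which cannot show whether the tumours were paired. The main fit treated them as unpaired.

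The count of receptors lower without overlap, 3 as reported, was 1 (Pdgfrb) with Agilent's log ratio, A-quantile red alone and the red processed signal alone. Median centring lost Pdgfrb, no background subtraction and the filter for all 8 arrays lost Igf1r, and leaving the bright area out lost Pdgfra, each leaving 2. The count higher without overlap, 0 as reported, was 2 with Agilent's log ratio (Alk and Epha5) and without WT 1 and WT 2 (Alk and Flt3), where Epha10 joined the lower ones. It was 1 with A-quantile red alone or the red processed signal alone (Alk), and 1 with an offset of 10, scaled ratios or the series matrix (Ror1). Nothing is read from Alk here, as its probe passed the filter only through the FGFR1 KO arrays.

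Ligand genes below 0, 13 as reported, numbered 22 with no detection filter and 8 and 7 with the filter for all 8 arrays and the bright area left out, which change how many genes are tested. Adaptor genes below 0, 17 as reported, numbered 11 with Agilent's log ratio and with the red processed signal alone, and 9 and 10 with those same restrictions. Leaving out each replicate in turn gave 0 to 1 probes called, 0 receptors called, 14 to 19 receptors below 0, 3 to 4 lower and 0 to 2 higher without overlap, 11 to 15 ligands and 12 to 18 adaptors below 0. The mean over a gene's probes gives no count of probes. Dim probes limit the WT arrays most, with 34 of 62 receptor probes well above background on WT 1.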
